A study of Mus musculus with 10 samples.

Results

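The genes described here are the type 2 cytokine locus and the IL-4 pathway in mouse Treg cells. The list held 10 names: the cytokine genes Il4, Il5 and Il13, the neighbouring genes Rad50 and Kif3a, the receptor gene Il4ra, the signal transducer Stat6, the transcription factor Gata3, the chemokine receptor Ccr4 and the noncoding gene Ecm1os. The names were matched to the gene names of the count files, which hold 55809 gene rows. Of the 10 names, 9 had a row. Ecm1os had none and is not reported. The list was drawn up because Il4 was high in an earlier look at the same libraries, so its members were in effect chosen by the Il4 counts of the same 2 groups. The difference between the groups in the members is therefore given as a description, and where it is said that a member passed a threshold, nothing is read from it. A mean count of at least 10 per library was needed for a fit, and 7 of the 9 members reached it.

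Bulk RNA-seq was performed on Treg cells from the spleen and lymph nodes of 10 mice, 1 library per mouse by the library names. In every mouse the endogenous Foxp3 allele encoded Foxp3 fused to an auxin-inducible degron (Foxp3-AID), with a ZsGreen reporter and Cre on the same transcript. In the 4 R26-WT mice the ROSA26 locus was wild type (replicates 1 to 4). In the 6 R26-TIR1(F74G) mice (replicates 5 to 10) it encoded TIR1(F74G), a mutated plant E3 ligase subunit marked with mCherry that acts on the degron when the auxin analog 5-ph-IAA is present. A STOP cassette before TIR1 is removed by the Cre of the Foxp3 allele, so TIR1 was limited to cells that have used that allele and their progeny. Both groups received 5-ph-IAA for 14 days, so the ligand and the fusion allele were common to both and the ROSA26 allele differed. The path in the file headers names the animals as male. The study treated both neonatal and adult mice for this time, and the sources used here do not say from which age these libraries come. The general scheme of the study enriched CD4+ T cells and then sorted cells positive for CD4, TCRβ and ZsGreen, and in addition for mCherry in R26-TIR1(F74G) mice. By the study's reporting notes, cells for bulk RNA-seq were sorted and re-sorted to high purity. The gate of these libraries is not stated by itself, and where mCherry was part of it, that gate and the genotype cannot be told apart.

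IL-4, IL-5 and IL-13 are the type 2 cytokines. Their genes lie together on chromosome 11, with Rad50, a DNA repair gene, between Il13 and Il5, and its introns hold a control region of the cytokine genes. IL-4 binds the IL-4 receptor alpha chain, paired with the common gamma chain, and signals through JAK kinases and STAT6; in T helper cells GATA3 acts with STAT6 to open the locus. Treg cells with impaired Foxp3 are known to be able to make TH2 cytokines.

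The library totals ranged from 24158699 to 54795718 counted read pairs. The T cell and Treg genes Cd3e, Cd4, Foxp3, Il2ra, Ctla4 and Ikzf2 had counts in all 10 libraries. Of the 10 T and Treg cell markers, 0 passed the test between the groups, where 1.74% of all tested genes passed. By unadjusted p, 1 of them was under 0.05, and edgeR called 0. With the dependence on exon length described next as a covariate, Cd4 was called higher (log2 fold change 0.24, SE 0.05, adjusted p 0.000301 in DESeq2) and Il2ra lower (log2 fold change -0.33, SE 0.08, adjusted p 0.00218 in DESeq2). Of all tested genes 4.61% were called with this covariate. The Foxp3 transcript, at 8929.6 ± 2366 (SD, n = 4) in R26-WT and 9401 ± 3415 (SD, n = 6) in R26-TIR1(F74G) normalized counts, does not report on the protein, which is what the degron acts on. Libraries also differed in how counts varied with exon length. For each library the Spearman correlation over genes between exon length and the gene's level relative to its mean over libraries was taken as the length trend. It ran from -0.41 to 0.38 in R26-WT and from -0.33 to 0.41 in R26-TIR1(F74G).

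The stretches just before the start sites of the 3 cytokine genes are shown because these genes share 1 locus and differed widely in their counts. The 250 bases upstream of each start are from RefSeq (GRCm38.p6) and were placed by exact match on GRCm39, the build of the count files. The Il4 stretch lies at chr11:53509493-53509742 on the minus strand, that of Il13 at chr11:53525530-53525779 on the minus strand and that of Il5 at chr11:53611371-53611620 on the plus strand. Positions are counted from the RefSeq start. For Il4 this start lies 4 bases inside the gene as the count files place it, so the last 4 bases of the stretch belong to that gene model, while for Il13 and Il5 both starts are the same. Each is written 5′ to 3′ on the strand of its gene, and capitals mark matches to a motif on either strand: the NFAT core GGAAA, the GATA motif AGATAA (T was also taken as its first and G as its last base), and the STAT6 motif TTCNNNNGAA.
Il4: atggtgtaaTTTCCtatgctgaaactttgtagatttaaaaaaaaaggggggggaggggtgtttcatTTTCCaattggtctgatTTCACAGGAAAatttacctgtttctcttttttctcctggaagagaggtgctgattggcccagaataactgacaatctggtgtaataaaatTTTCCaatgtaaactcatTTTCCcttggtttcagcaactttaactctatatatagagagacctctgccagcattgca
Il13: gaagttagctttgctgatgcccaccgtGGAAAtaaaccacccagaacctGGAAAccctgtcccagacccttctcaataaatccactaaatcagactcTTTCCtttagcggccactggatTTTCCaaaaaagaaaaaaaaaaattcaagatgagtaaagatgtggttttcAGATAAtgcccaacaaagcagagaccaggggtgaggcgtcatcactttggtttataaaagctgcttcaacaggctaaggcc
Il5: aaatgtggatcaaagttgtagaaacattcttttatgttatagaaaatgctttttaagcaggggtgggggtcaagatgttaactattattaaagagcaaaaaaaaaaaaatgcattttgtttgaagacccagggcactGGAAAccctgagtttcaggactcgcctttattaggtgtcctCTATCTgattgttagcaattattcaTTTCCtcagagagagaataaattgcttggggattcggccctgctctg

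The Il4 stretch held 5 NFAT cores, the one nearest to the start 59 to 55 bases before it. It also held 1 STAT6 motif, TTCACAGGAA, 167 to 158 bases before the start, and this match overlaps 1 of the NFAT cores. No GATA motif was matched there. The Il13 stretch held 4 NFAT cores and 1 GATA motif (81 to 76 bases before the start), and the Il5 stretch 2 NFAT cores and 1 GATA motif (72 to 67 bases before the start). Neither of these matched the STAT6 motif. The forkhead motif TGTTTAC was searched in the same way and matched 0 times in all 3. Of 32851 RefSeq promoter entries cut to the same 250 bases, 55.6% held the NFAT core, 26.5% a GATA motif, 5.85% the STAT6 motif and 3.17% the forkhead motif. A match is a description of the letters in this window.

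Il4, the cytokine that steers T cells to the TH2 fate, had low counts in R26-WT and higher counts in every R26-TIR1(F74G) library. The raw counts were 21, 10, 9 and 12 in R26-WT replicates 1 to 4. In R26-TIR1(F74G) replicates 5 to 10 they were 68, 111, 156, 60, 338 and 103. After division by the size factors of DESeq2 (normalized counts, used from here on) the R26-WT libraries lay between 7.32 and 16.7 and the R26-TIR1(F74G) libraries between 75.9 and 366, with a median of 110.1. The groups did not overlap, and the lowest R26-TIR1(F74G) library was 4.54 times the highest R26-WT library. The exact Poisson interval of the count was 13.0 to 32.1 for the highest R26-WT library and 52.8 to 86.2 for the R26-TIR1(F74G) library with the lowest normalized count. Intervals cover counting error only.

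The mean normalized count of Il4 was 11.01 ± 4.01 (SD, n = 4) in R26-WT and 149 ± 109 (SD, n = 6) in R26-TIR1(F74G), a ratio of 13.6. The log2 fold change fitted with DESeq2 was 3.76 with a standard error of 0.46 (95% interval 2.86 to 4.66). Replicate 9 stood apart from the other R26-TIR1(F74G) libraries and gave 40.4% of all Il4 counts of that group. Without it the mean was 106 ± 26.1 (SD, n = 5), the ratio to R26-WT 9.63 and the log2 fold change 3.26 (SE 0.33). Of the 7 tested members, 1 (Il4) had an adjusted p under 0.05 in DESeq2, where 284 of 16363 tested genes (1.74%) passed. The same holds for edgeR, where 0.373% of genes passed. It was also the only tested member with every R26-TIR1(F74G) library above every R26-WT library, a pattern that 1.57% of tested genes had. The choice of members used this contrast, so nothing is read from these counts.

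Il4 spans chr11:53493809-53509496 on the minus strand, with 1227 exon bases that no other annotated gene overlaps. In a bulk library, fewer cells that carry a transcript and less transcript per cell cannot be told apart, so the values do not say how many cells held Il4. Compared per kilobase of exon, Il4 stood at 8.97 ± 3.27 (SD, n = 4) normalized counts per kb in R26-WT and at 122 ± 88.4 (SD, n = 6) in R26-TIR1(F74G).

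**Figure D1:**
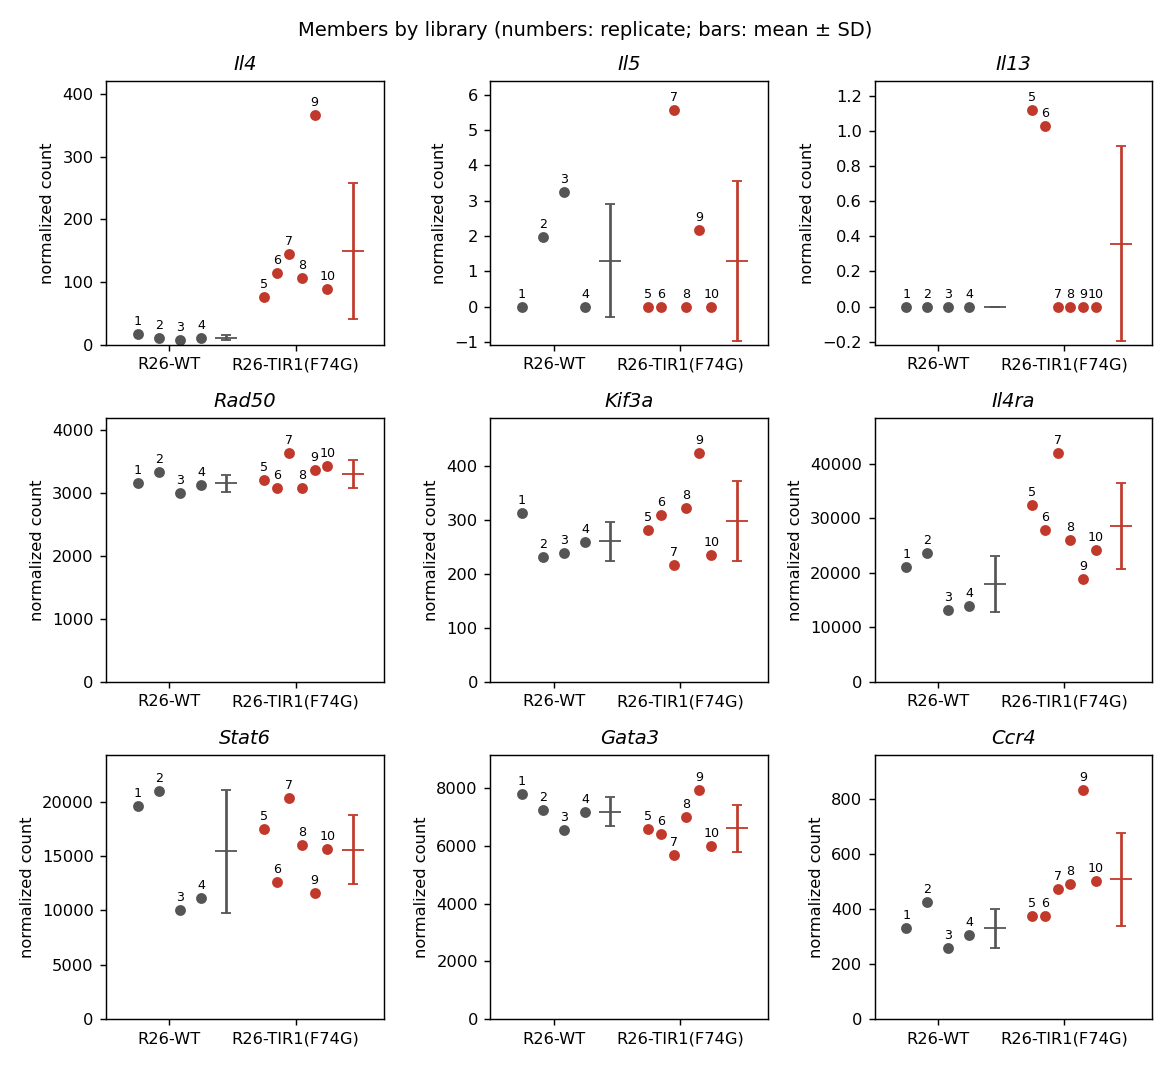
Normalized counts (vertical axes, linear, with their own scale for each gene) of the 9 members in R26-WT (grey, n = 4) and R26-TIR1(F74G) (red, n = 6). Points are libraries with their replicate number, and bars give the mean ± SD. Il4 is the panel in which the groups are apart, from 7.32 to 16.7 against 75.9 to 366, and replicate 9 is the highest R26-TIR1(F74G) library for Il4, Kif3a, Gata3 and Ccr4.

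Il5, the eosinophil growth factor, was near the limit of detection in both groups. Its raw counts were 0, 2, 4 and 0 in R26-WT. They were 0, 0, 6, 0, 2 and 0 in R26-TIR1(F74G). The summed level was 0.0293 CPM (counts scaled to the library total) in R26-WT and 0.0331 CPM in R26-TIR1(F74G), a ratio of 1.13 with a counting interval from 0.343 to 3.94. The groups overlapped, and a difference was not detectable at this depth. Gm12214, a gene on the opposite strand, overlaps 27.1% of the exon bases of Il5, and pairs that fall in both genes are not counted.

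Il13, the other ligand of the IL-4 receptor alpha chain, had raw counts of 0 in all 4 R26-WT libraries. In R26-TIR1(F74G) replicates 5 and 6 had a count of 1 each and the other 4 had 0. The summed counts of 0 and 2 both lie under the floor of 3 counts over a group, which is 0.0147 CPM in R26-WT and 0.0124 CPM in R26-TIR1(F74G), and no fold is given. The start of Il13 lies 16.0 kb from that of Il4 on the same strand, and Il4 reached 3.45 CPM in the summed R26-TIR1(F74G) libraries. Neither Il5 nor Il13 reached the mean count needed for a fit.

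Rad50 and Kif3a, the genes on either side of Il4 and Il13, had similar levels in both groups. Per kilobase of exon, Rad50 was far above the cytokine genes in both groups. Kif3a was above Il4 in R26-WT, at 72.4 against 8.97 normalized counts per kb. In R26-TIR1(F74G) the ranges of Kif3a and Il4 overlapped, with means of 83.1 and 122. Rad50 had 3157, 3326, 2989 and 3125 normalized counts in R26-WT. It had 3206, 3068, 3637, 3078, 3361 and 3426 in R26-TIR1(F74G). Its spread was the smallest of the 7 tested members, with an SD of 4.41% of the mean in R26-WT and 6.72% in R26-TIR1(F74G), and its log2 fold change was 0.07 (SE 0.09, 95% interval -0.10 to 0.24).

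Kif3a, which encodes a kinesin motor subunit needed for cilia, had 311, 231, 238 and 258 normalized counts in R26-WT. In R26-TIR1(F74G) it had 280.1, 309, 217, 322, 424 and 235. The groups overlapped, replicate 9 was the highest library, and the log2 fold change of 0.20 (SE 0.20) was 0.07 (SE 0.18) without it.

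To see how far along the chromosome a difference reached, all genes with a base within 500 kb of Il4 were taken. There were 43 besides Il4, of which 18 were tested and 16 of these were no members. Pdlim4, a gene for an actin-associated PDZ and LIM domain protein, was the 1 of these 16 that passed the test (284 of 16363 tested genes, 1.74%, passed in all). Its start lies 450.3 kb from that of Il4, at chr11:53945754-53959840 on the minus strand. Pdlim4 had 512 ± 81.7 (SD, n = 4) normalized counts in R26-WT and 1799 ± 584 (SD, n = 6) in R26-TIR1(F74G), and no R26-TIR1(F74G) library was as low as any R26-WT library. Its log2 fold change was 1.81 (SE 0.25), with an adjusted p of 4.77e-10 in DESeq2 and 0.0119 in edgeR's quasi-likelihood test.

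The genes nearest to the cytokine genes did not pass. Irf1, an interferon-induced transcription factor whose start lies 151 kb from that of Il4, had 26884 ± 3956 (SD, n = 4) and 25747 ± 3397 (SD, n = 6) normalized counts, a log2 difference of -0.06 (SE 0.14). Its exons overlap those of Gm17334. Between Rad50 and Irf1, the microRNA gene Mir7671 had 8.24 ± 3.70 (SD, n = 4) and 13.2 ± 3.28 (SD, n = 6) and ENSMUSG00000120213 had 15.2 ± 10.1 (SD, n = 4) and 14.1 ± 4.20 (SD, n = 6), both close to the minimum for a fit. Within 250 kb of Il4, 0 of 10 tested genes that are no members passed in DESeq2, 0 had an unadjusted p under 0.05 and 0 passed in edgeR.

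**Figure D2:**
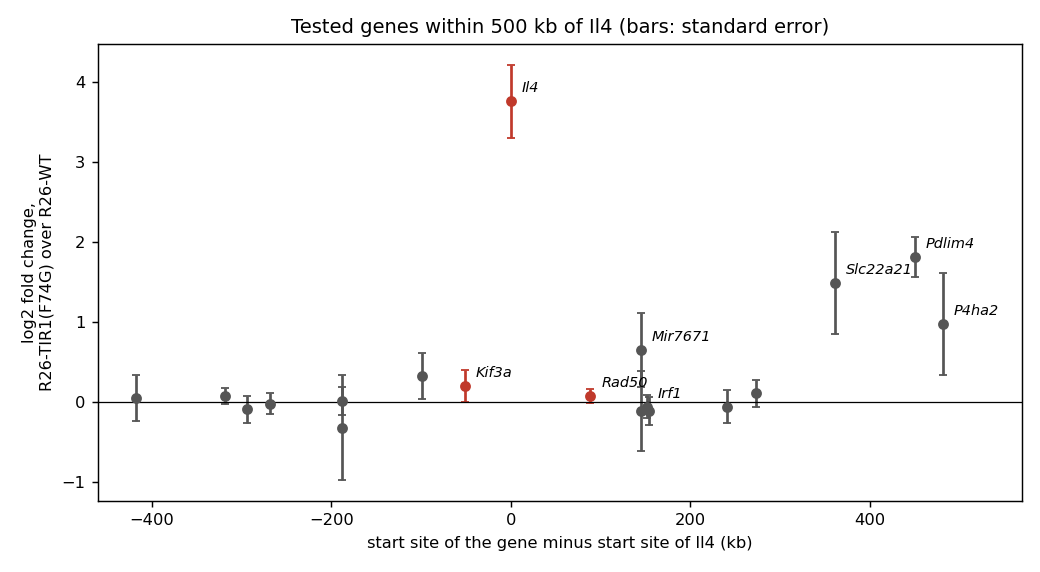
Log2 fold change of R26-TIR1(F74G) over R26-WT (vertical axis, bars are standard errors from DESeq2) of Il4 and the 18 tested genes within 500 kb of it, against the distance of their start sites from that of Il4 in kb (horizontal axis). Red marks members. Il4 stands at 3.76 while its neighbours Kif3a and Rad50 stand at 0.20 and 0.07 and Pdlim4, at 450.3 kb, at 1.81. Of the genes that are no members, Pdlim4 passed the test, and the value of Il4 is a description.

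Il4ra encodes the IL-4 receptor alpha chain, which binds both IL-4 and IL-13, and is itself known to be induced by IL-4 through STAT6. It was among the most abundant members. The R26-WT libraries had 21051, 23594, 13169 and 13916 normalized counts. The R26-TIR1(F74G) libraries had 32383, 27856, 42035, 26084, 18867 and 24200.4. In R26-TIR1(F74G), 5 of 6 libraries lay above the highest R26-WT library, and replicate 9, the one with the most Il4, was the lowest of the 6. The means were 17933 ± 5183 (SD, n = 4) and 28571 ± 7947 (SD, n = 6), a ratio of 1.59 and a log2 fold change of 0.67 (SE 0.24, 95% interval 0.21 to 1.13). Part of the exons of Il4ra (9.51%) overlaps Gm44876 on the other strand.

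Stat6, the transcription factor that the IL-4 receptor activates, had 19565 and 21015 normalized counts in R26-WT replicates 1 and 2 and 9993 and 11123 in replicates 3 and 4. The R26-TIR1(F74G) libraries had 17444, 12581, 20322, 15990, 11542 and 15628. They lay entirely within the range of R26-WT. The log2 fold change was 0.01 (SE 0.24, 95% interval -0.45 to 0.48).

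The levels of Il4ra and Stat6 moved with the length trend of the libraries. With each group centred on its mean, the Pearson correlation over 10 libraries between the length trend and the log2 level was 0.99 for Stat6, 0.88 for Il4ra, 0.56 for Rad50, 0.09 for Ccr4, -0.13 for Il4, -0.17 for Gata3 and -0.41 for Kif3a. All genes of a library share its length trend, and these values are descriptions. DESeq2 was therefore run again with the length trend as a covariate, a choice made after the data were seen. The log2 fold change of Il4ra was then 0.63 and its standard error fell from 0.24 to 0.11, and that of Stat6 was -0.01 with a standard error of 0.06. Il4 kept a log2 fold change of 3.72 (SE 0.44). With the covariate 4.61% of all tested genes passed. Il4 and Il4ra were among them, from which nothing is read, since the members were chosen on this contrast and the covariate after the data were seen.

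**Figure D3:**
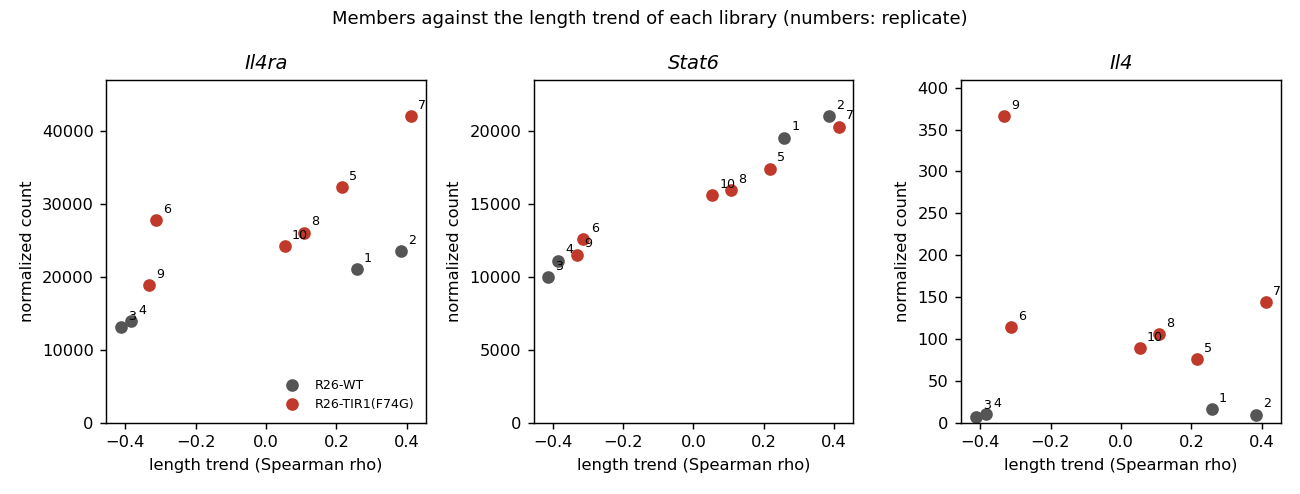
Normalized counts of Il4ra, Stat6 and Il4 (vertical axes, linear from 0) against the length trend of each library (horizontal axis, Spearman rho over genes between exon length and relative level); numbers are replicates, grey R26-WT (n = 4) and red R26-TIR1(F74G) (n = 6). Stat6 follows the trend with both groups together, Il4ra follows it with the R26-TIR1(F74G) libraries higher at a like trend, and Il4 does not follow it (r = -0.13, centred within groups).

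Gata3, the master transcription factor of TH2 cells, which is also expressed in Treg cells, had 7789, 7240.4, 6542 and 7161 normalized counts in R26-WT. It had 6573, 6409, 5677, 7017, 7948 and 5999.5 in R26-TIR1(F74G). The groups overlapped, with 3 R26-TIR1(F74G) libraries below the lowest R26-WT library and 1 above the highest. The log2 fold change was -0.12 (SE 0.12, 95% interval -0.35 to 0.11). The higher Il4 counts stood beside Gata3 counts that differed by less than their spread.

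Ccr4, a chemokine receptor found on TH2 and Treg cells, had 330.4, 426, 259 and 304 normalized counts in R26-WT. It had 375, 373, 473, 490 and 834 in R26-TIR1(F74G) replicates 5 to 9 and 501 in replicate 10. In R26-TIR1(F74G), 4 of 6 libraries lay above the highest R26-WT library. The mean was 330 ± 70.7 (SD, n = 4) against 508 ± 170 (SD, n = 6). The fitted log2 fold change was 0.62 (SE 0.24), and 0.43 (SE 0.18) without replicate 9.

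Per kilobase of exon, the order of the members in R26-WT was Stat6, Il4ra, Gata3, Rad50, Ccr4, Kif3a, Il4, Il5 and Il13, from 3504 ± 1288 (SD, n = 4) normalized counts per kb for Stat6 down to 0 for Il13. The ranges of Stat6 and Il4ra overlapped, as did those of Ccr4 and Kif3a and those of Il5 and Il13, and the other neighbours in the order were apart. In R26-TIR1(F74G), Il4ra was above Stat6 in all 6 libraries, with 4760 ± 1324 against 3540 ± 729 (SD, n = 6) normalized counts per kb and overlapping ranges. In R26-WT, Stat6 was above Il4ra in all 4 libraries. Il4 came after Ccr4 and before Kif3a in R26-TIR1(F74G). Ccr4 was above it in 5 of 6 libraries, it was above Kif3a in 4 of 6, and both pairs of ranges overlapped.

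The genes of the IL-4 receptor pathway were taken as a list of 24, covering receptor chains, JAK kinases, adaptors and inhibitors. Of these, 22 were tested and 20 of them were no members. Irs2, the insulin receptor substrate that links the IL-4 receptor to PI3 kinase, was lower in R26-TIR1(F74G), and the other 19 did not pass. By direction, 0.336% of all tested genes passed as lower and 1.4% as higher. Irs2 had 6251 ± 296 (SD, n = 4) normalized counts in R26-WT and 4109 ± 438 (SD, n = 6) in R26-TIR1(F74G), a log2 fold change of -0.61 (SE 0.11) with an adjusted p of 8.44e-06 in DESeq2 and 0.0189 in edgeR. The common gamma chain Il2rg had a log2 fold change of -0.17 (SE 0.15), Jak1 of 0.03 (SE 0.26) and Jak3 of 0.19 (SE 0.25). Of the negative regulators, Socs1 stood at 0.00 (SE 0.19), Socs3 at 0.28 (SE 0.14) and Cish at 0.16 (SE 0.10). Il13ra2, the decoy receptor of IL-13, had no count in any library. The median log2 fold change of the 20 genes was 0.02, beside 0.00063 over all tested genes.

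The TH2 programme was described by a list of 28 genes, of which 18 were tested and 16 of these were no members. In DESeq2, 0 of the 16 passed, where 1.74% of all tested genes did, so a list of this size can hold 0 calls without differing from other genes. In DESeq2, 3 had an unadjusted p under 0.05, and edgeR called 0 (with 3 at an unadjusted p under 0.05). The 3 in DESeq2 were Epas1, Il17rb and Plac8. Epas1, a hypoxia-induced transcription factor, had 39.8 ± 14.7 (SD, n = 4) and 92.0 ± 46.1 (SD, n = 6) normalized counts, a log2 difference of 1.21 (SE 0.37) with an adjusted p of 0.0575. Il17rb, the receptor of IL-25, had 28.1 ± 6.40 (SD, n = 4) and 62.3 ± 39.0 (SD, n = 6). Plac8 had 540.1 ± 125 (SD, n = 4) and 803 ± 151 (SD, n = 6). With the length trend as a covariate 2 genes, Epas1 and Plac8, passed, where 4.61% of all tested genes did.

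The cytokine genes Il9, Il24, Il3 and Il31 of this list had a count of 0 in all 10 libraries. The IL-33 receptor Il1rl1 stood at a log2 difference of 0.19 (SE 0.31), the chemokine receptor Ccr8 at -0.24 (SE 0.13) and Ecm1, a secreted protein known in TH2 cells, at 0.07 (SE 0.12). The transcription factor Maf, which acts on the Il4 promoter, had 683 ± 70.0 (SD, n = 4) and 857 ± 306 (SD, n = 6), with 1381 in replicate 9. The median of the 16 genes was 0.07.

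Of 31 genes listed as regulators of Il4, all were tested and 30 were no members. Ezh2 and Tcf7 were higher in R26-TIR1(F74G), Junb was lower, and 27 did not pass, where 1.4% of all tested genes passed as higher and 0.336% as lower. Ezh2, the methyltransferase of Polycomb repressive complex, had 1961 ± 105 (SD, n = 4) and 2512 ± 84.5 (SD, n = 6) normalized counts (log2 fold change 0.36, SE 0.08, adjusted p 0.000647 in DESeq2). Tcf7 encodes TCF-1, which is known to promote Gata3 in early TH2 cells; it had 57875 ± 7140.0 (SD, n = 4) and 77714 ± 7248 (SD, n = 6) (log2 fold change 0.43, SE 0.12, adjusted p 0.0257 in DESeq2). Junb, an AP-1 subunit that binds the Il4 promoter, had 55455 ± 12588 (SD, n = 4) and 34075 ± 4193 (SD, n = 6) (log2 fold change -0.70, SE 0.17, adjusted p 0.00279 in DESeq2). In edgeR 0 of the 30 passed and 4 had an unadjusted p under 0.05; the adjusted p-values were 0.123 for Ezh2, 0.121 for Tcf7 and 0.0673 for Junb. When 1 library at a time was left out of the DESeq2 fit, the call of Tcf7 was lost in 7 of 10 fits and that of Junb in 1, without R26-WT replicate 1. Batf, Irf4, Nfatc1, Nfatc2, Stat5a and Tbx21 were among the 27. With the length trend as a covariate 5 of the 30 were called in DESeq2, the same 3 and, both higher in R26-TIR1(F74G), Nfatc1 (log2 fold change 0.23, SE 0.07, adjusted p 0.0165) and Runx3 (log2 fold change 0.27, SE 0.07, adjusted p 0.00619). Of all tested genes 4.61% were called with this covariate. Without the covariate the median of the 30 genes was 0.14. A positive log2 fold change was seen in 24 of them (80%), against 50.1% of all tested genes.

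**Figure D4:**
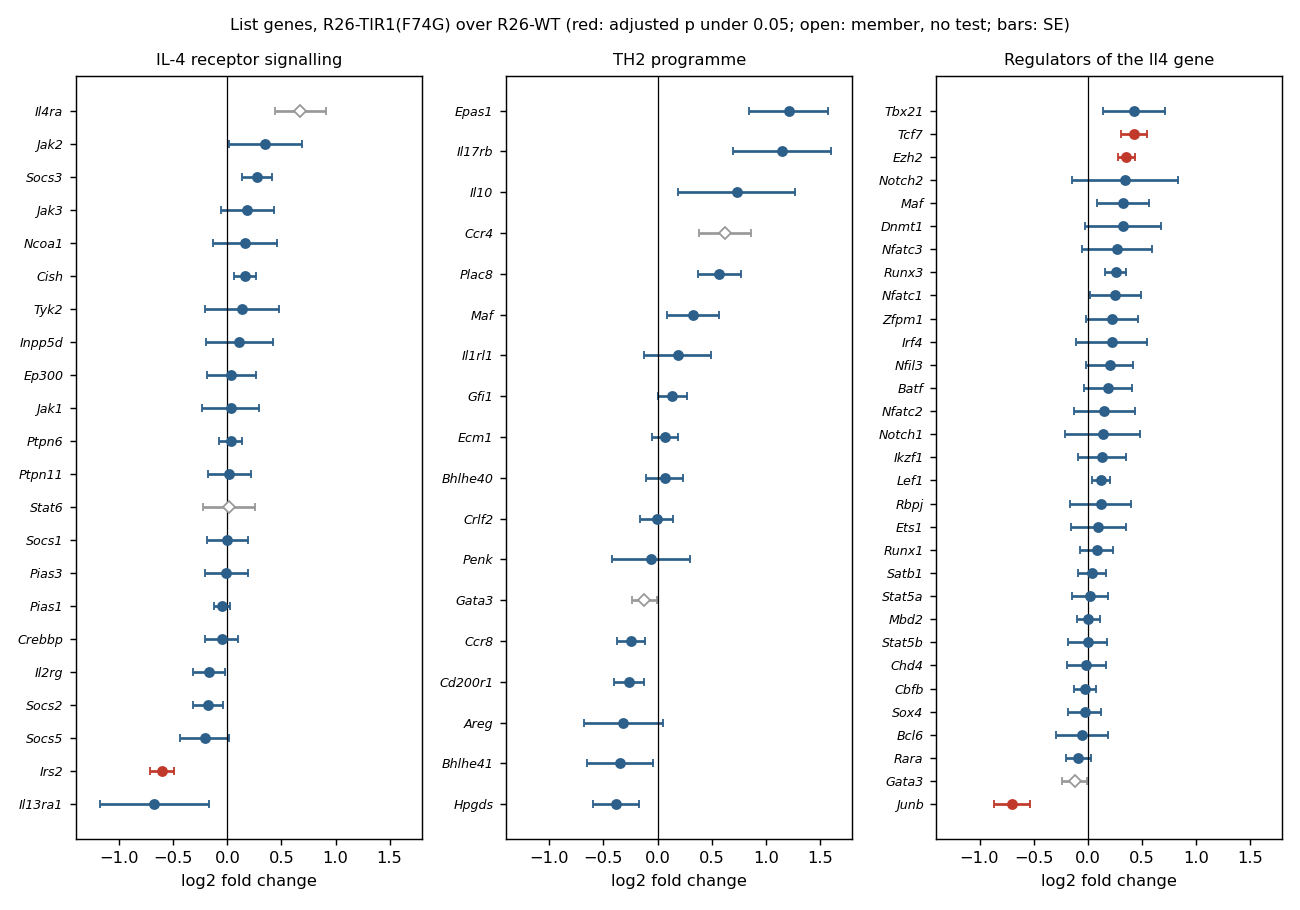
Log2 fold changes of R26-TIR1(F74G) over R26-WT (horizontal axes, bars are standard errors from DESeq2) for the tested genes of the 3 lists. Red marks genes with an adjusted p under 0.05 (Irs2, Ezh2, Tcf7 and Junb), blue the other genes, and open grey diamonds the members, for which no test is given.

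Il4 is also made by cells other than Treg cells, so their markers were read in the same libraries. The general scheme gated on CD4, TCRβ and ZsGreen. The gate of these libraries is not stated by itself, so which other cells it removed or kept is not known here. The basophil and mast cell genes Mcpt8, Fcer1a, Ms4a2, Gata2, Prss34 and Tpsb2 had a count of 0 in all 10 libraries, and the summed level of the 11 markers ranged from 5.59 to 9.01 CPM in R26-WT and from 6.86 to 8.94 CPM in R26-TIR1(F74G). Of these 11, 5 had any count, and Cpa3, Cd200r3, Hdc and Kit made up nearly all of it in both groups. The 7 eosinophil markers summed to at most 0.175 CPM in any library, with Siglecf, Ear1 and Ear2 at 0 in all. The 9 ILC2 markers ranged from 130.2 to 303 CPM and from 133 to 295 CPM, with none at 0 in all libraries. Of the 6 tested, 0 were called, where 1.74% of all tested genes were. By unadjusted p, 1 (Il17rb) was under 0.05, and edgeR called 0. Most of this sum was Il7r, the IL-7 receptor gene, which T cells also express, with 6954 ± 3071 (SD, n = 4) and 6931 ± 2354 (SD, n = 6) normalized counts. Nmur1, a neuropeptide receptor gene more particular to ILC2, was too low for a fit, with 0.610 ± 1.22 (SD, n = 4) and 7.21 ± 7.47 (SD, n = 6). In replicate 9 Nmur1 was at 15.1 and Il17rb, given above, at 89.8. Other R26-TIR1(F74G) libraries reached 17.7 for Nmur1 and 125 for Il17rb. Among R26-TIR1(F74G) libraries replicate 9 was the highest for Rora (2003), Klrg1 (74.6) and Ptgdr2 (2.16) and the lowest for Arg1 (11.9). For Il1rl1 and Il7r it was neither, and Calca had no count in that group. The part of ILC2 in the Il4 counts was not tested.

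NKT cells carry stores of Il4 transcript. Their transcription factor Zbtb16 had a count in 1 library, a R26-TIR1(F74G) library other than replicate 9. The gene segment Trav11, used by the NKT cell receptor, had 6.64 ± 2.95 (SD, n = 4) and 9.36 ± 1.90 (SD, n = 6) normalized counts, with counts in all 10 libraries and its highest level, 11.9, in replicate 9. Klrb1c, which encodes NK1.1, was at 46.5 in replicate 9, its highest level, with a R26-TIR1(F74G) median of 6.99 and a R26-WT mean of 10.3 ± 6.96 (SD, n = 4). The related segment Trav11d and Klrb1b had counts in 2 libraries and 1 library. The summed level of the 8 NKT markers was 519 to 564 CPM in R26-WT and 603 to 802 CPM in R26-TIR1(F74G), highest in replicate 9. Most of it was Slamf6, a receptor of many T cells, which was the 1 called marker, with 16173 ± 309 (SD, n = 4) and 21776 ± 2425 (SD, n = 6) normalized counts (log2 fold change 0.43, SE 0.10, adjusted p 0.00411 in DESeq2 and 0.103 in edgeR). The remaining markers Slamf1 and Sh2d1a had log2 differences of -0.17 (SE 0.09) and -0.18 (SE 0.18) and did not pass. Both were highest in replicate 9 among the R26-TIR1(F74G) libraries. The part of NKT cells in the Il4 counts was not tested.

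TFH cells also express Il4. The summed level of their 10 markers was 247 to 271 CPM in R26-WT and 231 to 441 CPM in R26-TIR1(F74G), and the highest value was that of replicate 9. Most of this value was Icos, Pdcd1 and Sh2d1a, with 9657, 3881 and 3528 normalized counts in replicate 9. Each was highest there among the R26-TIR1(F74G) libraries. Icos is also on the list of activated T cell markers below. Of the 10, 8 were tested and Tox2 was called, with 116 ± 63.2 (SD, n = 4) and 316 ± 171 (SD, n = 6) normalized counts (log2 fold change 1.44, SE 0.40, adjusted p 0.0236 in DESeq2 and 0.289 in edgeR) and 640.3 in replicate 9. None of the 10 was at 0 in all libraries. Cxcr5, the receptor that defines these cells, had 846 ± 157 (SD, n = 4) and 571 ± 100.1 (SD, n = 6), with an adjusted p of 0.0801 in DESeq2. With the length trend as a covariate Cxcr5 was called lower (log2 fold change -0.57, SE 0.15, adjusted p 0.00726 in DESeq2), beside Tox2. Bcl6 stood at a log2 difference of -0.05 (SE 0.24), and replicate 9 was its lowest R26-TIR1(F74G) library, at 426. The cytokine Il21 had 20.8 ± 8.39 (SD, n = 4) and 44.7 ± 20.3 (SD, n = 6), with an adjusted p of 0.375 in DESeq2. Il21 was at 51.9 in replicate 9 and reached 72.5 in another R26-TIR1(F74G) library. Ascl2 was at 15.1 in replicate 9 and reached 30.1 in another. Of the R26-TIR1(F74G) libraries, Cxcr5 was highest in replicate 9, at 690. Icos, a costimulatory receptor, had 4257 ± 352 (SD, n = 4) and 5430.0 ± 2106 (SD, n = 6), with 9657 in replicate 9. Sostdc1 and Cebpa were too low for a fit, with 1.63 ± 1.97 (SD, n = 4) and 13.5 ± 14.5 (SD, n = 6) for Sostdc1 and 3.95 ± 5.57 (SD, n = 4) and 12.6 ± 6.14 (SD, n = 6) for Cebpa, and both were highest in replicate 9, at 38.9 and 23.8. The part of TFH cells in the Il4 counts was not tested.

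Most of the listed proliferation genes were also higher in R26-TIR1(F74G). Of 18, all were tested, 14 were called higher and 0 lower in DESeq2, where 1.4% of all tested genes were called higher, and edgeR called 6. Ccnb1, Cdc20, Tk1 and Pcna did not pass, and Pcna stood at a log2 difference of -0.14 (SE 0.13). With the length trend as a covariate 17 of the 18 were called higher, Pcna being the one that was not. Of all tested genes 4.61% were then called in either direction. Their summed level was 169.8 to 219 CPM in R26-WT and 303 to 461 CPM in R26-TIR1(F74G), with 352 CPM in replicate 9, inside the range of the other R26-TIR1(F74G) libraries. Of the 11 markers of activated T cells, Tnfrsf9 was called lower (7734 ± 609, n = 4, and 5497 ± 502, n = 6, SD, normalized counts; adjusted p 0.000565 in DESeq2 and 0.051 in edgeR) and 10 did not pass, with 1327 to 1410.1 CPM in R26-WT and 1111 to 1371 CPM in R26-TIR1(F74G). With the length trend as a covariate Cd69 and Tnfrsf4 were called lower too (adjusted p 0.0378 and 0.0197 in DESeq2). Of the 8 markers of resting T cells Tcf7 was called, and the summed levels overlapped, with 8816 to 9235 CPM and 8619 to 9680.2 CPM.

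Of the 6 B cell markers 3 were tested. The B cell receptor genes Cd79a and Cd79b had log2 differences of -0.24 (SE 0.18) and -0.33 (SE 0.20) and did not pass. Cd22 was called higher, where 1.4% of all tested genes were, with 12.2 ± 4.82 (SD, n = 4) and 77.9 ± 95.9 (SD, n = 6) normalized counts (adjusted p 0.00266 in DESeq2 and 0.23 in edgeR) and 273 in replicate 9, while Ms4a1 had a count in 4 libraries. The summed B cell level was 19.3 to 31.8 CPM in R26-WT and 17.1 to 33.9 CPM in R26-TIR1(F74G). The 8 myeloid markers summed to 0.856 to 1.44 CPM and 0.604 to 1.60 CPM, with Cd14 and Clec9a at 0 in all libraries. Of the 7 CD8 and NK cell markers 6 were tested. The CD8 chain genes Cd8a and Cd8b1 had log2 differences of -0.56 (SE 0.71) and -0.23 (SE 0.14), the NK receptor gene Klrd1 -0.64 (SE 0.50), Klrb1c 0.26 (SE 0.95) and the granzyme gene Gzma 0.91 (SE 0.51), and none of these passed. Eomes, a transcription factor of these cells and of other T cells, was called higher (109 ± 29.8, n = 4, and 302 ± 63.1, n = 6, SD, normalized counts; adjusted p 4.54e-08 in DESeq2 and 0.0161 in edgeR), again beside 1.4% of all tested genes. Ncr1 was at 0 in all libraries, and the summed levels of 30.4 to 44.8 CPM and 32.1 to 41.0 CPM overlapped. The part of other cell types in the results was not tested.

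The genes whose level moved most like Il4 from mouse to mouse within the groups were found by the Pearson correlation of log2(normalized count + 1), centred on the mean of each group, over 10 libraries. Among 10647 genes with a mean normalized count of at least 50, the 8 most alike were Tspan17 (r = 0.93), Rora (0.91), Ttc39c (0.90), Kif5c (0.89), Actg2 (0.88), Fut7 (0.88), Il18r1 (0.88) and Anxa2 (0.87). All 8 were highest in replicate 9 among the R26-TIR1(F74G) libraries. Without replicate 9 the correlations of these genes over 9 libraries were between 0.40 and 0.78, so the likeness rests in large part on 1 mouse. Taking the 6 R26-TIR1(F74G) libraries alone left 1 of the 8 genes among the 8 most alike.

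Rora encodes a nuclear receptor known in ILC2 and tissue Treg cells. It had 962 ± 192 (SD, n = 4) normalized counts in R26-WT and 1103 ± 452 (SD, n = 6) in R26-TIR1(F74G), with 2003 in replicate 9 and 801 to 1072 in the other 5. Fut7, the fucosyltransferase that makes selectin ligands, had 774 in replicate 9 and 100.4 to 243 in the other 5 R26-TIR1(F74G) libraries. Anxa2, an annexin, had 4568 against 1329 to 1937, and Il18r1, a chain of the IL-18 receptor, 2131 against 1295 to 1608. Between the groups, Rora, Kif5c, Actg2, Fut7, Il18r1, Ttc39c and Anxa2 had no adjusted p under 0.05, and DESeq2 gave none for Tspan17.

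Among the members, Ccr4 was the most like Il4 (r = 0.77, place 39 of 10647), followed by Kif3a (0.68), Gata3 (0.67) and Rad50 (0.30). The values for Stat6 and Il4ra were -0.08 and -0.20. Without replicate 9 they were 0.32 for Ccr4, 0.22 for Kif3a, 0.19 for Gata3, 0.35 for Rad50, 0.49 for Stat6 and 0.55 for Il4ra, so the order of the members turned. These are correlations over 10 or 9 libraries of small groups and are given as descriptions.

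**Figure D5:**
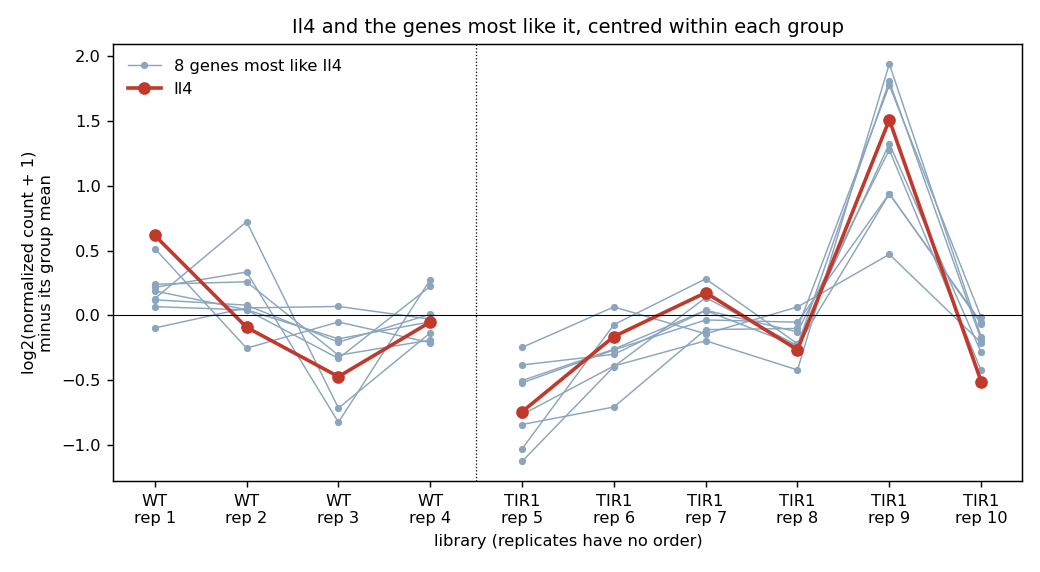
Log2(normalized count + 1) minus the mean of its group (vertical axis) for Il4 (red) and the 8 genes most like it (blue) in each library (horizontal axis; lines join values of 1 gene and imply no order of the mice). In replicate 9 Il4 and all 8 genes are at their highest among the R26-TIR1(F74G) libraries.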

How the data were processed

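The deposited files hold raw counts of read pairs per gene name, 1 library per file, which the authors had not normalized. Per the file headers, they were made with featureCounts 2.1.1 and GENCODE M30 (GRCm39), from primary alignments with both mates mapped and a mapping quality of at least 30, with no strand option. Pairs that fall in several genes are not counted, and antisense genes cannot be told apart. The study's methods name STAR and the submitters' processing notes Bowtie2. The study's methods describe SMART-Seq v4 libraries from low-input RNA, without molecular identifiers, for bulk RNA-seq of adult female mice. They do not describe libraries of male mice treated for 14 days separately.

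Genotypes were compared with DESeq2 1.42.0 (R 4.3.3), with genotype as the only term, over genes whose mean count reached 10, and with Benjamini-Hochberg adjusted p-values over all 16363 genes, a call being under 0.05. Of these genes 6 had no adjusted p. edgeR 4.0.16 (quasi-likelihood test, TMM) was an alternative. Scripts were tested on simulated data. Levels are counts divided by DESeq2 size factors, per kb of merged exons between genes.

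Members and gene lists were chosen with earlier results of these data known. Named genes were the members, every called gene of the 3 lists, the tested genes from Kif3a to Irf1, and the 8 genes most like Il4 with a symbol other than an Ensembl, Gm or Rik name; Pdlim4, the other genes of the lists, and the markers were named after their values were seen. Of the 10 members, 8 had a RefSeq promoter entry. The p-values measure the spread between mice. One B cell marker is not reported here.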

Additional observations from a re-analysis of the deposited data

Results flagged for a closer look

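A library was looked for that stood far from the rest of its group, by its gap to the nearest library over the range of the group (Dixon's 95% limit). Of 43 groups of values, 5 had one. For independent and normally distributed values the limit would be passed by about 1 in 20, or 2.15. These groups are counts from the same libraries and sums of lists that share genes, so nothing is read from 5 beside 2.15. Replicate 9 was that library in 4 of them. In R26-TIR1(F74G), Il4 had 366 normalized counts in replicate 9 and 144 in the next library, a ratio of gap to range of 0.763. Ccr4 had 834 against 501, a ratio of 0.722. The summed NKT cell markers had 802 CPM against 675, a ratio of 0.636, and the summed TFH markers 441 CPM against 272, a ratio of 0.804. Most of the NKT sum was Slamf6, and most of the TFH sum was Icos, Pdcd1 and Sh2d1a. In R26-WT, the summed eosinophil markers had 0.175 CPM in replicate 4 and 0.0223 CPM in the next library, a ratio of 0.974, which rests on a few read pairs.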

How the results depend on the processing

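No paired analysis was possible because replicates 1 to 4 and 5 to 10 have no number in common. All 105 alternatives for the log2 fold changes of the 7 tested members (edgeR, TMM size factors, other count minimums, the length trend and leaving out 1 library) stayed within the spread between libraries, with Il4 between 3.26 and 4.04 when 1 library was left out. Il4ra had an adjusted p under 0.05 in DESeq2 in 2 of these 10 fits (those that left out R26-TIR1(F74G) replicate 9 or R26-WT replicate 2), from which nothing is read, since it is a member. Over all genes, edgeR called 61 genes and DESeq2 with the length trend 754, and leaving out 1 library gave 187 (without R26-WT replicate 4) to 346. With the length trend, called genes were 2 of the IL-4 receptor pathway (Irs2 and Jak2), 2 of the TH2 programme (Epas1 and Plac8), 5 regulators (Junb, Ezh2, Tcf7, Nfatc1 and Runx3) and 2 genes near Il4 (Pdlim4 and Slc22a21). edgeR called 0 regulators (4 at an unadjusted p under 0.05), and within 250 kb of Il4 DESeq2 called 0 genes (0 at an unadjusted p under 0.05, 0 by edgeR). Leaving out 1 library gave 0 to 2 called genes of the TH2 programme, with 2 without R26-TIR1(F74G) replicate 6 and 1 without R26-WT replicate 1 or R26-TIR1(F74G) replicate 10. The call of Tcf7 was lost in 7 of 10 such fits and that of Junb in 1, without R26-WT replicate 1; Ezh2, Irs2 and Pdlim4 kept theirs in all 10. The cause of these changes was not tested. Depth limits Il5 and Il13, whose summed counts were 6 and 8 for Il5 and 0 and 2 for Il13 in R26-WT and R26-TIR1(F74G), and 4 R26-WT mice limit all comparisons.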
